A study of Mus musculus with 12 samples.

Results

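The 38 genes described here are Atf4 and genes it is known to control in amino acid supply and stress: 5 transcription factors, 5 stress effectors, 6 enzymes of serine synthesis and mitochondrial one-carbon metabolism, 7 other amino acid enzymes, 8 amino acid transporters and 7 cytosolic tRNA synthetases. They were chosen by name for their known roles, with earlier results of these data already known. By their Ensembl identifiers, all 38 were found among the 52636 genes of the count table. All 38 passed the filter on low counts that left 17993 genes for testing. RNA was sequenced from the back skin of BALB/c mice to ask how blocking mTORC1 with rapamycin (RAPA) changes the skin reaction to LL37, the peptide cut from the antimicrobial protein cathelicidin. The study's methods give female mice of 6 to 8 weeks, with LL37 injected into the skin over 2 days as a model of rosacea.

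The 4 groups held 3 libraries each, and the study describes the sequenced samples as biologically independent. The control mice received vehicle in the skin and no rapamycin. The control + RAPA mice received the same vehicle and 4 mg/kg of intraperitoneal rapamycin per day. The LL37 mice received the peptide without rapamycin, and the LL37 + RAPA mice received both. No mouse carried an engineered allele. The model is a short exposure of shaved skin to an injected peptide, and each library is whole skin, so fewer cells of a type and less RNA per cell cannot be told apart in any result here.

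ATF4 is a transcription factor whose own mRNA is held back from translation until the initiation factor eIF2 is phosphorylated by kinases that sense amino acid shortage, unfolded protein, viral RNA or lack of haem. mTORC1, the kinase complex that rapamycin inhibits, can also raise ATF4 and through it the enzymes that make serine, glycine and one-carbon units for purine synthesis. ATF4 binds as a dimer, often with a C/EBP partner, at composite elements in the promoters of genes for amino acid synthesis, amino acid uptake and tRNA charging. Because ATF4 is set largely at translation, its mRNA is a poor measure of its activity, and no protein was measured here.

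The libraries held 15734559 to 23271784 counts each, and 3 counts corresponded to 0.123 to 0.184 CPM, the unit of level used here (counts scaled to the size of each library by TMM). LL37 replicate 3 stood apart from its group: on the first principal component of all tested genes it lay at 64.4, against 133 and 129 for the other LL37 libraries, -62.6 to -50.2 for control and 0.53 to 29.8 for LL37 + RAPA. The epidermal markers that define skin were present throughout, with a summed level of 30623 to 46756 CPM over all 12 libraries. The sum of 20 skeletal muscle markers was 39146 to 56712 CPM in control, 37.6 to 896 CPM in LL37 and 3326 to 7132 CPM in LL37 + RAPA. The sum of 12 neutrophil markers was 64.6 to 142 CPM in control and 162 to 517 CPM in LL37 + RAPA. In LL37 it was 2248, 3029 and 345 CPM, the last in replicate 3. The sum of 10 proliferation markers was 193 to 277 CPM in control, 572 to 731 CPM in LL37 and 350 to 370 CPM in LL37 + RAPA. The part of these cell types in the results for the 38 genes was not tested.

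With LL37, 19 of the 38 genes rose and 7 fell against control, and 12 did not pass the test. A gene was called at a Benjamini-Hochberg adjusted p under 0.05 from edgeR's quasi-likelihood test over all tested genes, which is the source of every adjusted p given here. Over all tested genes the same call was made upward for 21% and downward for 21.6%. The median log2 fold change was 0.41 for the 38 genes and -0.005 for all genes. With a log2 fold change beyond 1 added, which the study uses to define a differentially expressed gene (DEG), 6 rose and 4 fell, where all genes gave 8.73% and 10.8%. The LL37 libraries lay above all control libraries for 16 of the 38 genes and below all of them for 9, and groups without overlap were found for 49.7% of all genes.

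In LL37 skin without rapamycin, 16 of the 38 genes were higher than in LL37 + RAPA skin, 4 were lower and 18 did not pass the test. All tested genes gave 11.8% higher and 12.4% lower. The median log2 fold change was 0.38, against -0.004 for all genes. As DEGs, 6 were higher and 2 lower, where all genes gave 4.33% and 5.8%. This comparison shares its LL37 libraries with the previous one, so the members that pass in both are not separate evidence.

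In LL37 + RAPA against control, 1 gene was higher and 5 were lower, where all genes gave 5.03% and 9.01%. Without LL37 replicate 3, which enters through the filter, the scaling and the shared estimate of the spread, 3 were higher. Over all genes 1563 of 18396 were then higher, against 905 of 17993 in the main fit. As DEGs, 0 were higher and 2 lower, where all genes gave 2.15% and 4.35%. The median was -0.04, against 0.005 over all genes. Scaled by library size alone, 3 genes were called higher and 3 lower, without Atf5 and Gpt2 among them, and the median of all genes moved to 0.13. With that scaling 1986 of all 17993 genes were called higher and 1254 lower, against 905 and 1622 in the main fit. The heat map of all 38 genes shows that the LL37 + RAPA libraries lie mostly near the control libraries, with Chac1 and Vldlr as the clearest exceptions.

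**Figure D1:**
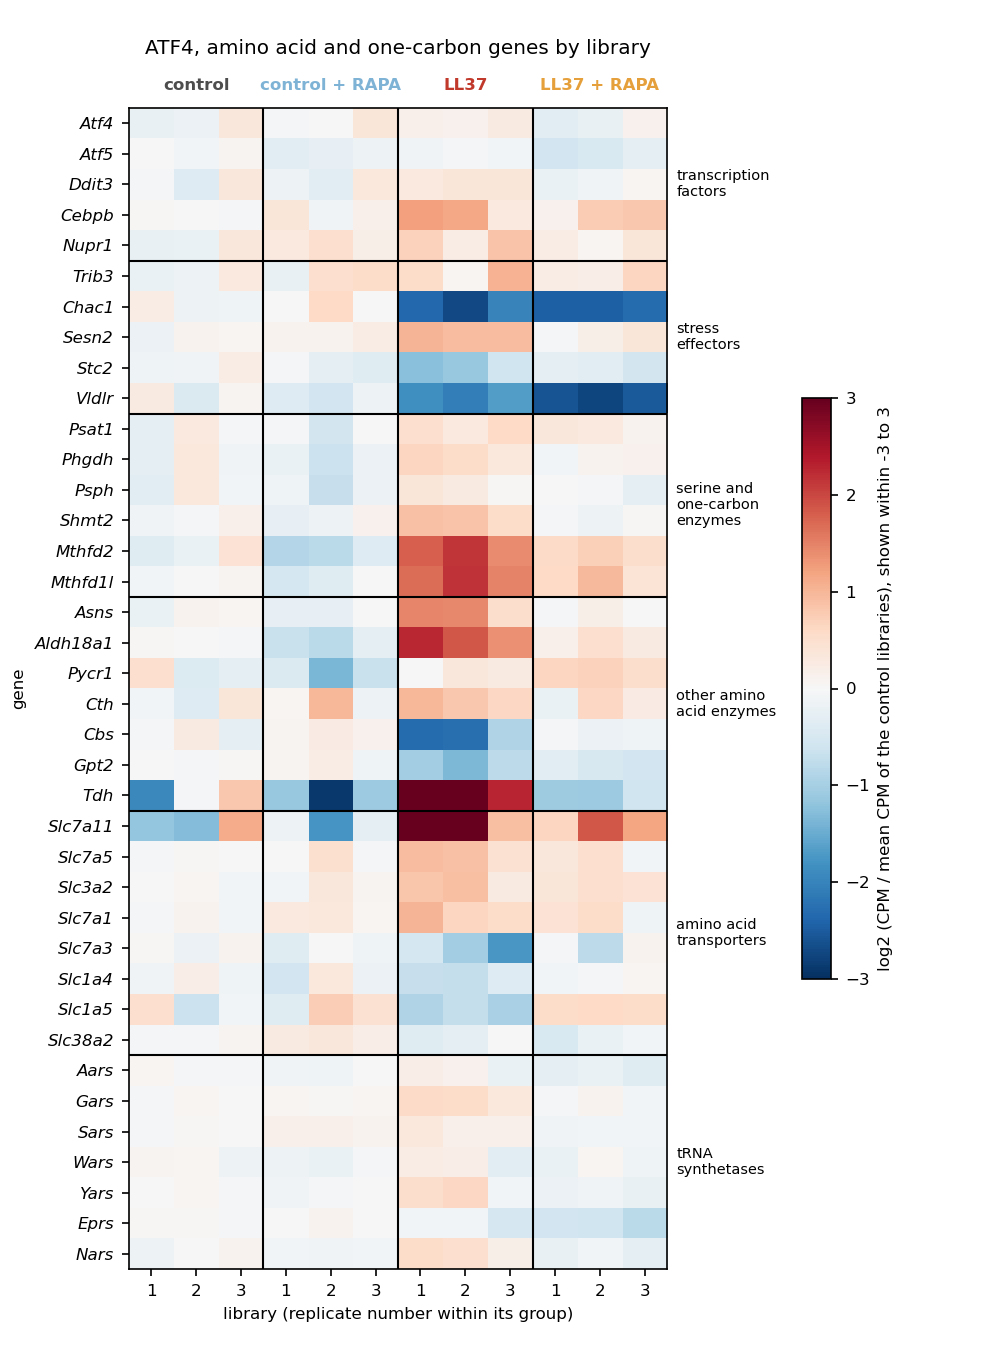
Each cell gives the log2 ratio of a gene's CPM in 1 library to the mean CPM of the 3 control libraries, with genes grouped by role and libraries by group. The enzyme genes Mthfd2, Mthfd1l, Aldh18a1 and Tdh are raised in all 3 LL37 libraries, with LL37 replicate 3 nearer to control, while Chac1 and Vldlr are low in all 6 LL37 and LL37 + RAPA libraries.

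LL37 replicate 3 was the LL37 library nearest to control for 16 of the 19 genes that rose (the exceptions were Nupr1, Psat1 and Sars) and for 6 of the 7 that fell (the exception was Slc1a5). Without it, 18 genes rose and 7 fell against control, and 22 were higher and 5 lower than in LL37 + RAPA. Over all 18396 genes then tested, 4541 rose and 4251 fell against control, and 3200 were higher and 3208 lower than in LL37 + RAPA. In the same order, the main fit gave 3777, 3891, 2120 and 2239 of 17993. Each of the 12 libraries was also left out in turn. Of the 19 rises against control, 14 held in all 12 of these fits, as did 5 of the 7 falls. Of the 16 genes higher than in LL37 + RAPA, 10 held in all 12, as did 2 of the 4 lower ones, which became 2 without LL37 + RAPA replicate 1. Calls that did not hold are marked where the genes are described.

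The composite C/EBP-ATF element was searched in promoter windows because it is a sequence through which ATF4 is known to act on some of these genes. The windows ran from 250 bases before to 50 bases after the annotated start (RefSeq, GRCm38.p6), and 31 of the 38 genes had a window. The letters searched were TGATGNAAN on both strands. They were found for 11 of the 31 genes (35.5%), against 4.5% of all 27025 genes with a window. The genes were listed for their known control by ATF4, so the higher share is not separate evidence about them. The 11 genes were divided over the outcomes: 5 of the 16 genes that rose with LL37 and had a window held the element, 3 of the 6 that fell, and 3 of the 9 that did not pass the test. A match is only a match of letters in this window, and no binding was measured.

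The windows below are those of the genes with the largest LL37 effects that held the element, and of Asns, where the element is best known. Capitals mark the matched letters, and each sequence reads 5′ to 3′ along the strand of the gene.
Slc7a11, chr3:50443564-50443863, minus strand: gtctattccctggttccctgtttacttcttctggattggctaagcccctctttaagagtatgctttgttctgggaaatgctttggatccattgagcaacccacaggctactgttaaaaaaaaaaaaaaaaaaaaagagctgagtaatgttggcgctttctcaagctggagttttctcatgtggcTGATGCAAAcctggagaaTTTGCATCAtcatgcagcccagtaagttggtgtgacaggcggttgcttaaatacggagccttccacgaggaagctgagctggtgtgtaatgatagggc
Asns, chr6:7693160-7693459, minus strand: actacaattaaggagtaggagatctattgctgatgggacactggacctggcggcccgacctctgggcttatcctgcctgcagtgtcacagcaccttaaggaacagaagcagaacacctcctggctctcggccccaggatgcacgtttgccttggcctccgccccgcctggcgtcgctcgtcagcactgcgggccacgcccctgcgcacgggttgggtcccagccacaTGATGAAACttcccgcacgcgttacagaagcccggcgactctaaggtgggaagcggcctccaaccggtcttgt
Chac1, chr2:119350992-119351291, plus strand: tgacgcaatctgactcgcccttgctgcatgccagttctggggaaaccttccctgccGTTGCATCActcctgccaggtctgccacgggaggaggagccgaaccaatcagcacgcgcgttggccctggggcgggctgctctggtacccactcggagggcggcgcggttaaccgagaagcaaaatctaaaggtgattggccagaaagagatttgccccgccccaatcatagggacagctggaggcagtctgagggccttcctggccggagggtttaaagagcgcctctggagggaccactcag
Vldlr, chr19:27216770-27217069, plus strand: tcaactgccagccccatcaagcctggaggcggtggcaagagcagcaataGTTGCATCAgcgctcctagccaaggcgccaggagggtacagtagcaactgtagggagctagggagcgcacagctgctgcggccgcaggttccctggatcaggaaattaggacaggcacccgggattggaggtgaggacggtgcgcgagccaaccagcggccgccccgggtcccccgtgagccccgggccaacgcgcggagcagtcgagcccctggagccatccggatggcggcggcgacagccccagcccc

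Counting back from the start, the Asns match lies at bases -23 to -15 and the Slc7a11 window holds a pair of matches on opposite strands, at bases -66 to -58 and -48 to -40. The Chac1 match lies at bases -194 to -186 and the Vldlr match at bases -201 to -193, in 1 of the windows of that gene. Of these 4 genes, Slc7a11 and Asns rose with LL37 and Chac1 and Vldlr fell, so genes with the element were found on both sides. The windows of Mthfd2, Mthfd1l and Aldh18a1, which rose strongly, did not hold these letters.

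Among the transcription factors, Cebpb and Nupr1 rose with LL37, and Atf4 itself did not pass the test in any comparison. Atf4 (ENSMUSG00000042406, chr15:80255184-80257541) was at 119, 123 and 175 CPM in control, at 136, 138 and 180 CPM in control + RAPA, at 154, 151 and 168 CPM in LL37 and at 112, 119 and 151 CPM in LL37 + RAPA. All 4 groups overlapped. Its log2 fold change was 0.18 ± 0.17 (SE) in LL37 against control (adjusted p = 0.416) and 0.31 ± 0.17 in LL37 against LL37 + RAPA (adjusted p = 0.203).

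Cebpb encodes C/EBPβ, an inflammatory factor that can pair with ATF4. It was at 261, 253 and 247 CPM in control, 598, 567 and 309 CPM in LL37 and 276, 433 and 442 CPM in LL37 + RAPA. It rose by a log2 fold change of 0.96 ± 0.24 with LL37 (adjusted p = 0.00774), and was 0.36 ± 0.24 above LL37 + RAPA (adjusted p = 0.296). Nupr1, a small stress-induced chromatin protein, rose by 0.61 ± 0.19 with LL37 (adjusted p = 0.0202), a call lost without control replicate 1 (adjusted p = 0.0855), control replicate 2 (0.0833) or LL37 replicate 1 (0.0605).

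Atf5, a relative of Atf4 under the same translational control, did not differ from control with LL37 by more than its error (-0.08 ± 0.09, adjusted p = 0.539). It was 0.36 ± 0.09 higher in LL37 than in LL37 + RAPA (adjusted p = 0.0166) and fell by 0.43 on the log2 scale in LL37 + RAPA against control (adjusted p = 0.00804). The first of these calls was lost without LL37 + RAPA replicate 1 (adjusted p = 0.0799) or replicate 2 (0.0523). Ddit3, which encodes the stress factor CHOP, gave 0.34 ± 0.19 and 0.41 ± 0.19 in the 2 LL37 comparisons, and neither passed the test. Exons of Atf5, Cebpb and Ddit3 overlap other genes on the opposite strand, as do exons of Psph, Shmt2, Tdh, Aars and Yars, and those of Aars and Ddit3 also overlap a gene model on the same strand. Whether the counting used strand is not given in the sources used here.

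The stress effectors went both ways. Sesn2, a sestrin that restrains mTORC1 when leucine is short, was at 22.4, 27.3 and 26.3 CPM in control, 51.5, 48.5 and 47.9 CPM in LL37 and 24.3, 28.6 and 32.5 CPM in LL37 + RAPA. All LL37 libraries were above all others. It rose by 0.96 ± 0.12 with LL37 (adjusted p = 9.04e-05) and was 0.79 ± 0.12 above LL37 + RAPA (adjusted p = 0.0018).

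Chac1 encodes an enzyme that breaks down glutathione and is a common marker of ATF4 activity in cultured cells. Chac1 (ENSMUSG00000027313, chr2:119351229-119354381) was at 40, 30.8 and 31.2 CPM in control and at 33.8, 51.8 and 33.6 CPM in control + RAPA. It was at 6.64, 5.21 and 8.48 CPM in LL37 and at 6.26, 6.26 and 6.9 CPM in LL37 + RAPA. Both LL37 groups lay far below both groups without LL37. Chac1 changed by a log2 fold of -2.32 ± 0.21 in LL37 against control (adjusted p = 1.3e-05) and -2.39 ± 0.21 in LL37 + RAPA against control (adjusted p = 2.93e-05), and 0.07 ± 0.21 between the LL37 groups (adjusted p = 0.833).

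Vldlr, the very low density lipoprotein receptor (ENSMUSG00000024924, chr19:27216484-27254231), was at 93.5, 57 and 81.9 CPM in control and 58.8, 51.9 and 70 CPM in control + RAPA. It was at 21.8, 18.3 and 24.4 CPM in LL37 and at 13, 11.5 and 13.5 CPM in LL37 + RAPA. The LL37 libraries lay below all control libraries and above all LL37 + RAPA libraries. Vldlr changed by a log2 fold of -1.85 ± 0.18 in LL37 against control (adjusted p = 2.26e-05), 0.77 ± 0.18 in LL37 against LL37 + RAPA (adjusted p = 0.013) and -2.62 ± 0.19 in LL37 + RAPA against control (adjusted p = 8.24e-06). The summed skeletal muscle markers also fell in both LL37 groups, but were higher in LL37 + RAPA than in LL37, where Vldlr was lower, and their part in the Chac1 and Vldlr results was not tested.

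Stc2, a secreted glycoprotein of the stress response, fell by 0.97 on the log2 scale with LL37 (SE 0.17, adjusted p = 0.000989) and was 0.58 lower than in LL37 + RAPA (log2 fold change -0.58 ± 0.17, adjusted p = 0.031). The second call was lost without LL37 replicate 1 (adjusted p = 0.124) or replicate 2 (0.104), or LL37 + RAPA replicate 1 (0.101) or replicate 2 (0.0776). Trib3, a pseudokinase that feeds back on ATF4, gave 0.61 ± 0.28 with LL37 (adjusted p = 0.0966) at 5.61 to 7.85 CPM in control and 6.68 to 13.2 CPM in LL37.

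**Figure D2:**
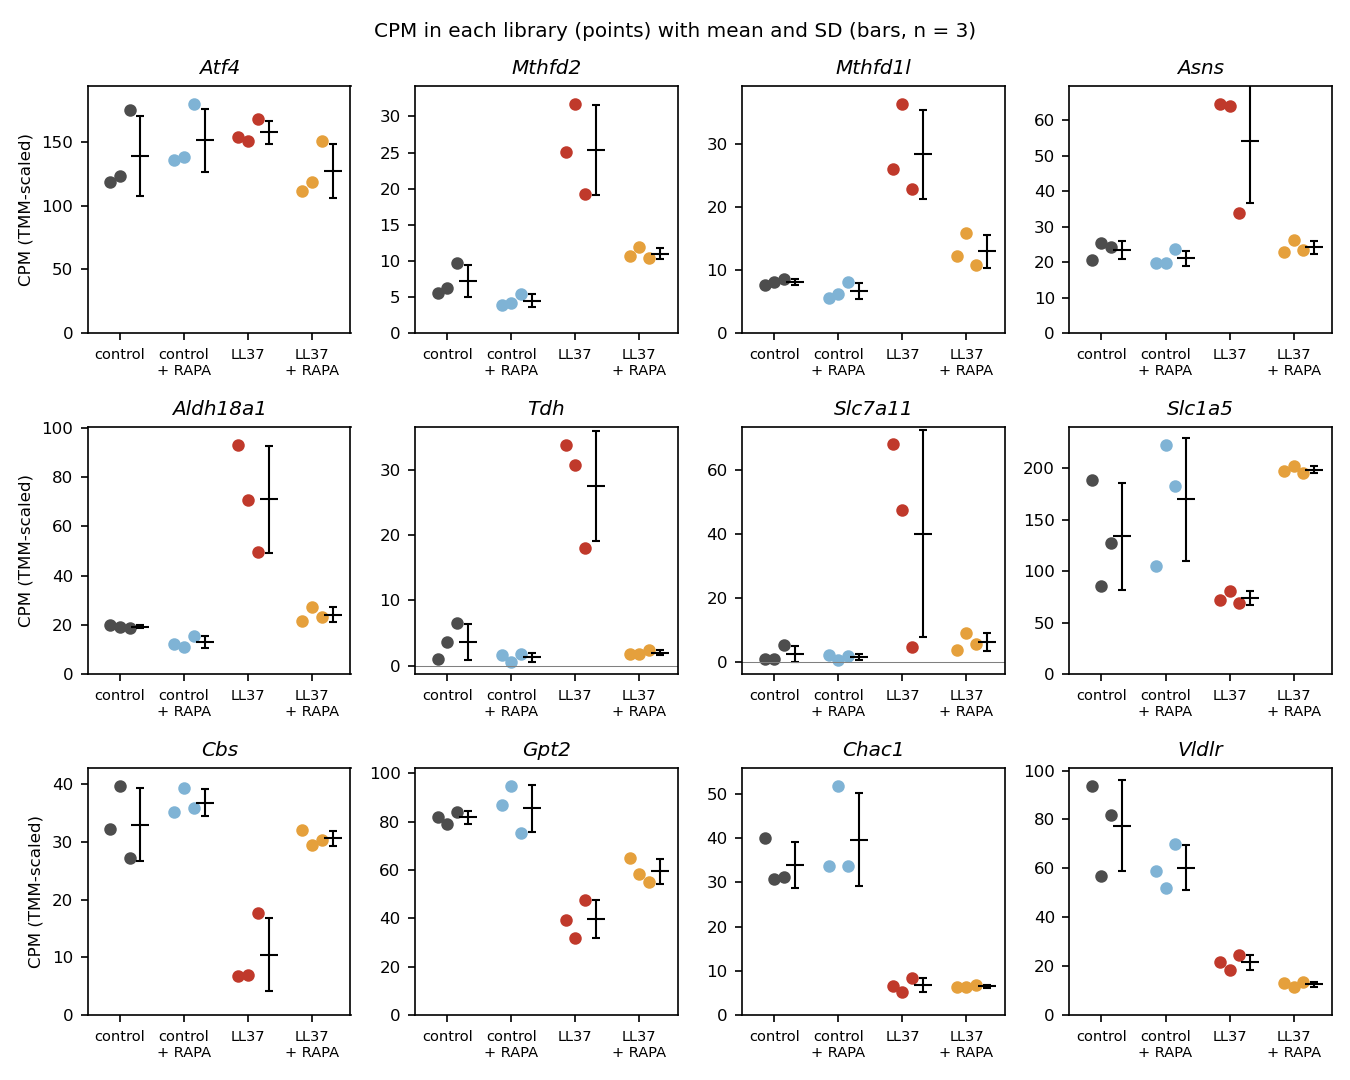
Points give CPM in each of the 3 libraries of a group, and the bars beside them the mean and SD, for Atf4 and the 11 DEGs of both LL37 comparisons. Mthfd2, Mthfd1l, Asns, Aldh18a1 and Tdh are highest in all 3 LL37 libraries, with LL37 + RAPA between LL37 and control for Mthfd2, Mthfd1l and Aldh18a1, Cbs and Slc1a5 are low in LL37 alone, and Chac1 and Vldlr are low with LL37 whether or not rapamycin was given.

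The enzymes of serine synthesis and one-carbon metabolism mostly rose with LL37. In that comparison 5 of the 6 rose and 0 fell, with a median log2 fold change of 0.64. Against LL37 + RAPA, 3 of the 6 were higher and 0 lower, with a median again of 0.64. Over all tested genes 21% rose and 21.6% fell with LL37, and 11.8% were higher and 12.4% lower than in LL37 + RAPA. The changes were largest for the mitochondrial folate enzymes.

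Mthfd2 oxidises the folate-bound one-carbon unit in mitochondria and is normally low in adult tissue. Mthfd2 (ENSMUSG00000005667, chr6:83305691-83325908) was at 5.61, 6.25 and 9.75 CPM in control and 3.9, 4.1 and 5.47 CPM in control + RAPA. It was at 25.1, 31.7 and 19.3 CPM in LL37 and at 10.7, 11.9 and 10.4 CPM in LL37 + RAPA. The 4 groups did not overlap. Mthfd2 rose by a log2 fold change of 1.81 ± 0.24 against control (adjusted p = 0.000138) and 1.20 ± 0.23 against LL37 + RAPA (adjusted p = 0.00483). LL37 + RAPA remained above control by 0.61 ± 0.23, which did not pass the test (adjusted p = 0.112).

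Mthfd1l releases formate from mitochondria for use in the cytosol. Mthfd1l (ENSMUSG00000040675, chr10:3973118-4167081) was at 7.66, 8.1 and 8.53 CPM in control, 5.64, 6.27 and 8.17 CPM in control + RAPA, 26, 36.3 and 22.8 CPM in LL37 and 12.2, 15.8 and 10.8 CPM in LL37 + RAPA. LL37 exceeded LL37 + RAPA, and LL37 + RAPA exceeded both groups without LL37, in every library. Differences on the log2 scale were 1.81 ± 0.21 against control (adjusted p = 6e-05), 1.13 ± 0.20 against LL37 + RAPA (adjusted p = 0.00376) and 0.68 ± 0.21 for LL37 + RAPA against control (adjusted p = 0.0482). The last was the single rise in LL37 + RAPA against control, and it was lost in 9 of the 12 fits without 1 library (highest adjusted p = 0.209, without LL37 + RAPA replicate 2).

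Shmt2, which splits serine into glycine and a one-carbon unit in mitochondria, was at 66.9, 69.6 and 80.2 CPM in control, 133, 131 and 105 CPM in LL37 and 69, 64.7 and 73.4 CPM in LL37 + RAPA. LL37 lay above both others, which overlapped. Shmt2 was higher by 0.77 ± 0.13 on the log2 scale against control (adjusted p = 0.000609) and 0.83 ± 0.13 against LL37 + RAPA (adjusted p = 0.00192).

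The 3 enzymes that make serine from a glycolytic intermediate moved less. Phgdh, the first step, rose by 0.51 ± 0.16 with LL37 (adjusted p = 0.0258), a call lost without control replicate 1 (adjusted p = 0.106), control replicate 3 (0.0897), LL37 replicate 1 (0.0934) or LL37 replicate 2 (0.0507). Psat1, the second step, rose by 0.46 ± 0.17 (adjusted p = 0.0412), a call lost in 9 of the 12 fits without 1 library (highest adjusted p = 0.166, without control replicate 1). Psph, the last step, gave 0.23 ± 0.18 and did not pass the test. Compared with LL37 + RAPA skin, the same 3 genes gave 0.46 ± 0.16, 0.22 ± 0.17 and 0.33 ± 0.18 on the log2 scale, and none passed the test (adjusted p from 0.0619 to 0.36).

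Other folate, serine and glycine genes were read from a list of 26. With LL37, 10 rose and 1 fell, with a median of 0.18, and 8 were higher and 1 lower than in LL37 + RAPA, with a median of 0.30. All tested genes gave 21% up and 21.6% down with LL37, and 11.8% higher and 12.4% lower than in LL37 + RAPA. The same shares stand beside each further list below. Aldh1l2, another mitochondrial folate enzyme, rose from 2.1 to 3.11 CPM in control to 11 to 15.7 CPM in LL37 (log2 fold change 2.21 ± 0.25, adjusted p = 6e-05) and was 1.77 ± 0.25 above LL37 + RAPA (adjusted p = 0.00161). Sfxn1, a mitochondrial serine carrier, rose by 0.79 ± 0.11 (adjusted p = 0.000219). Ahcy, which clears the product of methylation reactions, rose by 0.81 ± 0.16 (adjusted p = 0.00159). The proliferation markers, of which 10 of 10 rose with LL37, moved in the same direction, and their part was not tested.

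The other amino acid enzymes held both rises and falls. With LL37, 3 of the 7 rose and 2 fell, where all tested genes gave 21% and 21.6%. Against LL37 + RAPA 3 were higher and 2 lower, where all genes gave 11.8% and 12.4%. Asns makes asparagine and is a classic ATF4 target. Asns (ENSMUSG00000029752, chr6:7675169-7693254) was at 20.5, 25.4 and 24.4 CPM in control, 19.9, 19.8 and 23.6 CPM in control + RAPA, 64.5, 64 and 34 CPM in LL37 and 22.9, 26.3 and 23.4 CPM in LL37 + RAPA. The LL37 libraries lay above all 9 others, and the other 3 groups overlapped. The log2 fold change was 1.21 ± 0.21 against control (adjusted p = 0.000814), 1.16 ± 0.21 against LL37 + RAPA (adjusted p = 0.00364) and 0.05 ± 0.21 for LL37 + RAPA against control (adjusted p = 0.919).

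Aldh18a1 makes the common precursor of proline and ornithine from glutamate. Aldh18a1 (ENSMUSG00000025007, chr19:40550257-40588463) was at 19.8, 19.2 and 18.7 CPM in control, 12.2, 10.9 and 15.6 CPM in control + RAPA, 93, 70.5 and 49.4 CPM in LL37 and 21.4, 27.4 and 23.4 CPM in LL37 + RAPA. The 4 groups did not overlap. The log2 fold change was 1.88 ± 0.21 against control (adjusted p = 4.61e-05) and 1.56 ± 0.21 against LL37 + RAPA (adjusted p = 0.00145). Pycr1, the next step to proline, did not pass the test (0.21 ± 0.28 and -0.41 ± 0.27) at 1.33 to 5.57 CPM over all libraries.

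Tdh carries out the first step in the breakdown of threonine to glycine and acetyl-CoA in mice. Tdh (ENSMUSG00000021953, chr14:63492347-63509092) was at 0.971, 3.59 and 6.48 CPM in control, 1.68, 0.494 and 1.73 CPM in control + RAPA, 33.9, 30.8 and 18 CPM in LL37 and 1.76, 1.72 and 2.43 CPM in LL37 + RAPA. LL37 stood above every other library, while the control libraries spread widely. Tdh rose by 2.90 ± 0.53 on the log2 scale against control (adjusted p = 0.0012) and 3.80 ± 0.56 against LL37 + RAPA (adjusted p = 0.0018).

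Cbs, the entry to cysteine synthesis from homocysteine (ENSMUSG00000024039, chr17:31608894-31637238), moved the other way. It was at 32.2, 39.6 and 27.1 CPM in control, 35.2, 39.4 and 35.9 CPM in control + RAPA, 6.69, 6.86 and 17.8 CPM in LL37 and 32.1, 29.4 and 30.4 CPM in LL37 + RAPA. All LL37 libraries were below all others, with replicate 3 nearest to them. The log2 fold change was -1.65 ± 0.31 against control (adjusted p = 0.00133) and -1.54 ± 0.31 against LL37 + RAPA (adjusted p = 0.00582). Without LL37 replicate 3 these were -2.25 and -2.18. Cth, the following step, gave 0.81 ± 0.33 with LL37 and did not pass the test (adjusted p = 0.0666), at 1.95 to 5.14 CPM over all libraries.

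Gpt2, the mitochondrial alanine transaminase (ENSMUSG00000031700, chr8:85492576-85527560), was at 82.1, 79 and 84 CPM in control, 86.7, 94.6 and 75.1 CPM in control + RAPA, 39.4, 31.9 and 47.7 CPM in LL37 and 64.8, 58.4 and 54.9 CPM in LL37 + RAPA. LL37 was lowest and LL37 + RAPA lay between it and control without overlap. The log2 fold change was -1.04 ± 0.14 against control (adjusted p = 0.000159) and -0.58 ± 0.14 against LL37 + RAPA (adjusted p = 0.0124), the latter lost without LL37 + RAPA replicate 1 (adjusted p = 0.0547). In LL37 + RAPA against control it fell by 0.46 on the log2 scale (adjusted p = 0.0439), a call lost in 10 of the 12 fits without 1 library (highest adjusted p = 0.15, without LL37 + RAPA replicate 3). The skeletal muscle markers had the same order of groups as Gpt2, and their part was not tested.

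Amino acid enzymes beyond the 38 genes, read from a list of 16, were divided too. With LL37, 5 rose and 8 fell, with a median of -0.39, where all tested genes gave 21% and 21.6%. Against LL37 + RAPA, 4 were higher and 4 lower, with a median of -0.02, where all genes gave 11.8% and 12.4%. Ass1 and Arg1, the urea cycle enzymes that make and split arginine, rose by 2.07 ± 0.32 (adjusted p = 0.000425) and 2.26 ± 0.40 (adjusted p = 0.000899). Got1, the cytosolic aspartate transaminase, fell by 1.44 on the log2 scale (adjusted p = 1.76e-05). Bcat2, the mitochondrial branched-chain transaminase, fell by 0.71 (adjusted p = 3.88e-05).

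The transporters held the gene with the largest rise with LL37 among the 38. Slc7a11 encodes the cystine carrier xCT, which supplies cysteine for glutathione. Slc7a11 (ENSMUSG00000027737, chr3:49892526-50443614) was at 1.13, 1.03 and 5.48 CPM in control, 2.28, 0.741 and 2.07 CPM in control + RAPA, 68, 47.5 and 4.76 CPM in LL37 and 3.99, 9.29 and 5.82 CPM in LL37 + RAPA. A pair of LL37 libraries stood far above all others, and LL37 replicate 3 lay within the range of control and of LL37 + RAPA. The log2 fold change was 3.97 ± 0.89 against control (adjusted p = 0.00402) and 2.65 ± 0.82 against LL37 + RAPA (adjusted p = 0.0361). Without LL37 replicate 3 these were 4.53 and 3.17. The second call was lost in 6 of the 12 fits without 1 library (highest adjusted p = 0.143, without LL37 replicate 1). The summed neutrophil markers were also high in LL37 replicates 1 and 2 and low in replicate 3, and their part was not tested.

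Slc3a2 encodes the heavy chain CD98 that both xCT and the leucine carrier LAT1 need to reach the membrane, and Slc7a5 encodes LAT1. Slc3a2 was at 151, 156 and 141 CPM in control and at 266, 281 and 181 CPM in LL37, and rose by 0.70 ± 0.16 (adjusted p = 0.00385). Slc7a5 was at 34.7, 37.2 and 36.4 CPM in control and 68.7, 66.4 and 49.6 CPM in LL37, and rose by 0.77 ± 0.18 (adjusted p = 0.00506). Slc7a1, which carries arginine and lysine, rose by 0.75 ± 0.17 (adjusted p = 0.00485). Each of these 3 was separated from control in every library. Against LL37 + RAPA their log2 fold changes were 0.27 ± 0.15, 0.49 ± 0.18 and 0.44 ± 0.17, and none passed the test (adjusted p = 0.222, 0.0653 and 0.0825).

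Slc1a5, the glutamine carrier ASCT2 (ENSMUSG00000001918, chr7:16781340-16798274), was lower in LL37. It was at 189, 85.4 and 127 CPM in control, 105, 222 and 183 CPM in control + RAPA, 71.8, 81 and 68.8 CPM in LL37 and 198, 203 and 196 CPM in LL37 + RAPA. The LL37 libraries were below all others, and the groups without LL37 varied widely. On the log2 scale LL37 differed by -1.43 ± 0.28 against LL37 + RAPA (adjusted p = 0.00578) and -0.86 ± 0.28 against control (adjusted p = 0.0281). The call against control was lost without control replicate 1 (adjusted p = 0.129), LL37 replicate 1 (0.077), LL37 replicate 2 (0.053) or LL37 replicate 3 (0.0627). The 12 adipocyte markers summed to 627 to 1132 CPM in LL37, 2163 to 3609 CPM in control and 3532 to 3720 CPM in LL37 + RAPA, moving in the same direction, and their part was not tested.

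Slc1a4, a carrier of alanine, serine and cysteine, fell by 0.59 on the log2 scale with LL37 (adjusted p = 0.032), a call lost without control replicate 2 (adjusted p = 0.0937), LL37 replicate 1 (0.0977) or LL37 replicate 2 (0.112). Slc38a2, the carrier SNAT2 that is induced by amino acid shortage in cultured cells, gave -0.20 ± 0.12 with LL37 and 0.04 ± 0.12 against LL37 + RAPA, and neither passed the test. Slc7a3 was near the limit of detection, at 0.188 to 0.685 CPM over all libraries. In a list of 19 other amino acid carriers, 6 rose and 4 fell with LL37, and 1 was higher and 3 lower than in LL37 + RAPA. All tested genes gave 21% up and 21.6% down with LL37, and 11.8% and 12.4% against LL37 + RAPA. Slc7a7, another carrier that pairs with CD98, rose by 1.53 ± 0.21 (adjusted p = 0.000195). Slc38a4, a carrier of neutral amino acids, fell by 2.09 on the log2 scale (adjusted p = 6.93e-05), and Slc7a10, a carrier of small neutral amino acids that marks adipocytes, by 1.93 (adjusted p = 0.00151). Slc38a3, a glutamine carrier, fell from 53.1 to 55.8 CPM in control to 0.919 to 2.64 CPM in LL37 (adjusted p = 4.04e-06).

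The tRNA synthetases, which attach amino acids to their tRNAs, changed by small amounts. Of the 7 among the 38 genes, 4 rose with LL37 (Gars, Nars, Yars and Sars) and 0 fell. Against LL37 + RAPA, 6 were higher (Nars, Yars, Gars, Eprs, Aars and Sars) and 0 lower, with a median of 0.45 and a range of 0.14 to 0.61. Over all tested genes the shares were 21% up and 21.6% down with LL37, and 11.8% and 12.4% against LL37 + RAPA. With only the compared groups fitted, 2 rose and 2 were higher than in LL37 + RAPA. Those fits called 2743 of 17167 genes up with LL37 and 1197 of 17234 higher than in LL37 + RAPA. In LL37 + RAPA against control, 0 were higher and 1 was lower, where all genes gave 5.03% and 9.01%. The lower gene was Eprs (log2 fold change -0.66 ± 0.11, adjusted p = 0.00226).

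Gars, for glycine, was at 83.3, 90.6 and 85.7 CPM in control, 130, 126 and 107 CPM in LL37 and 82.7, 93.5 and 81.1 CPM in LL37 + RAPA. It rose by 0.48 ± 0.09 with LL37 (adjusted p = 0.00143) and was 0.50 ± 0.09 above LL37 + RAPA (adjusted p = 0.0042). Nars, for asparagine, was at 96.4, 108 and 115 CPM in control, 157, 151 and 121 CPM in LL37 and 91.4, 101 and 88.5 CPM in LL37 + RAPA. It rose by 0.43 ± 0.11 (adjusted p = 0.00768) and was 0.61 ± 0.11 above LL37 + RAPA (adjusted p = 0.00355). The LL37 libraries of both genes lay above all others, and all 4 calls held whichever library was left out.

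Eprs, for glutamate and proline, followed another course: it was at 162, 161 and 152 CPM in control, 148, 149 and 112 CPM in LL37 and 106, 104 and 89.8 CPM in LL37 + RAPA. It was thus highest without LL37, with a log2 fold change of -0.21 ± 0.11 in LL37 against control that did not pass the test (adjusted p = 0.153), and was 0.45 ± 0.11 higher in LL37 than in LL37 + RAPA (adjusted p = 0.0156). The latter call was lost without LL37 replicate 1 (adjusted p = 0.0705), LL37 replicate 2 (0.0542) or LL37 + RAPA replicate 3 (0.0652).

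The calls for Yars, Sars and Aars were less firm. Yars rose by 0.39 ± 0.14 with LL37 (adjusted p = 0.0486), and the call was kept only in the fit without LL37 replicate 3, among the 12 that left out 1 library (highest adjusted p = 0.165, without LL37 replicate 1). Sars rose by 0.21 ± 0.07 (adjusted p = 0.0356), a call lost in 9 of the 12 fits (highest adjusted p = 0.158, without LL37 replicate 1). Against LL37 + RAPA, Yars was 0.55 ± 0.14 higher (adjusted p = 0.0194), Sars 0.30 ± 0.07 higher (adjusted p = 0.0151) and Aars 0.32 ± 0.10 higher (adjusted p = 0.042). These were lost in 4, 2 and 11 of the 12 fits, with the highest adjusted p, 0.0808, 0.0749 and 0.173, each without LL37 replicate 1. Wars, for tryptophan, gave 0.06 ± 0.14 and 0.14 ± 0.14, and neither passed the test.

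With 13 other cytosolic synthetases added, 11 of 20 rose with LL37 and 0 fell. Of the 20, 17 were higher in LL37 than in LL37 + RAPA and 0 lower. Beside these stand 21% up and 21.6% down over all tested genes with LL37, and 11.8% and 12.4% against LL37 + RAPA. All 20 log2 fold changes against LL37 + RAPA were above 0, with a median of 0.47 and a range of 0.14 to 0.72. The 17 calls became 7 without LL37 replicate 1, 9 without LL37 replicate 2, 8 without LL37 + RAPA replicate 1 or replicate 3, and 19 without LL37 replicate 3. They also became 7 when only the compared groups were fitted. The 11 rises became 6 without LL37 replicate 1, 7 without control replicate 2 or replicate 3, and 6 when only the compared groups were fitted. Over all genes the calls higher than in LL37 + RAPA went from 2120 of 17993 to 896 of 18403 without LL37 replicate 1. They were 3200 of 18396 without LL37 replicate 3, and 1197 of 17234 with only the compared groups. Calls upward with LL37 went from 3777 of 17993 to 2819 of 18403 without LL37 replicate 1. With only the compared groups they were 2743 of 17167. Rars, for arginine, rose by 0.50 ± 0.08 (adjusted p = 0.000623) and was 0.63 ± 0.08 above LL37 + RAPA (adjusted p = 0.00145). Cars, for cysteine, and Hars, for histidine, were 0.54 ± 0.09 and 0.50 ± 0.09 above LL37 + RAPA (adjusted p = 0.00219 and 0.0042). Tars, for threonine, rose by 0.62 ± 0.14 (adjusted p = 0.00381) and was 0.72 ± 0.14 above LL37 + RAPA (adjusted p = 0.00468).

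The 17 mitochondrial synthetases, encoded by separate nuclear genes, gave other counts. With LL37, 0 rose and 4 fell, with a median of -0.16, and 1 was higher and 0 lower than in LL37 + RAPA, with a median of 0.12. All tested genes gave 21% up and 21.6% down with LL37, so the count of falls was near the share of all genes. Against LL37 + RAPA all genes gave 11.8% higher and 12.4% lower. Fars2, for phenylalanine, fell by 0.37 on the log2 scale with LL37 (adjusted p = 0.0114), Aars2, for alanine, by 0.35 (adjusted p = 0.0192) and Tars2, for threonine, by 0.29 (adjusted p = 0.0167). Mars2, for methionine, was the gene higher than in LL37 + RAPA (0.47 ± 0.14, adjusted p = 0.0325). The difference between the cytosolic and the mitochondrial list was not tested.

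**Figure D3:**
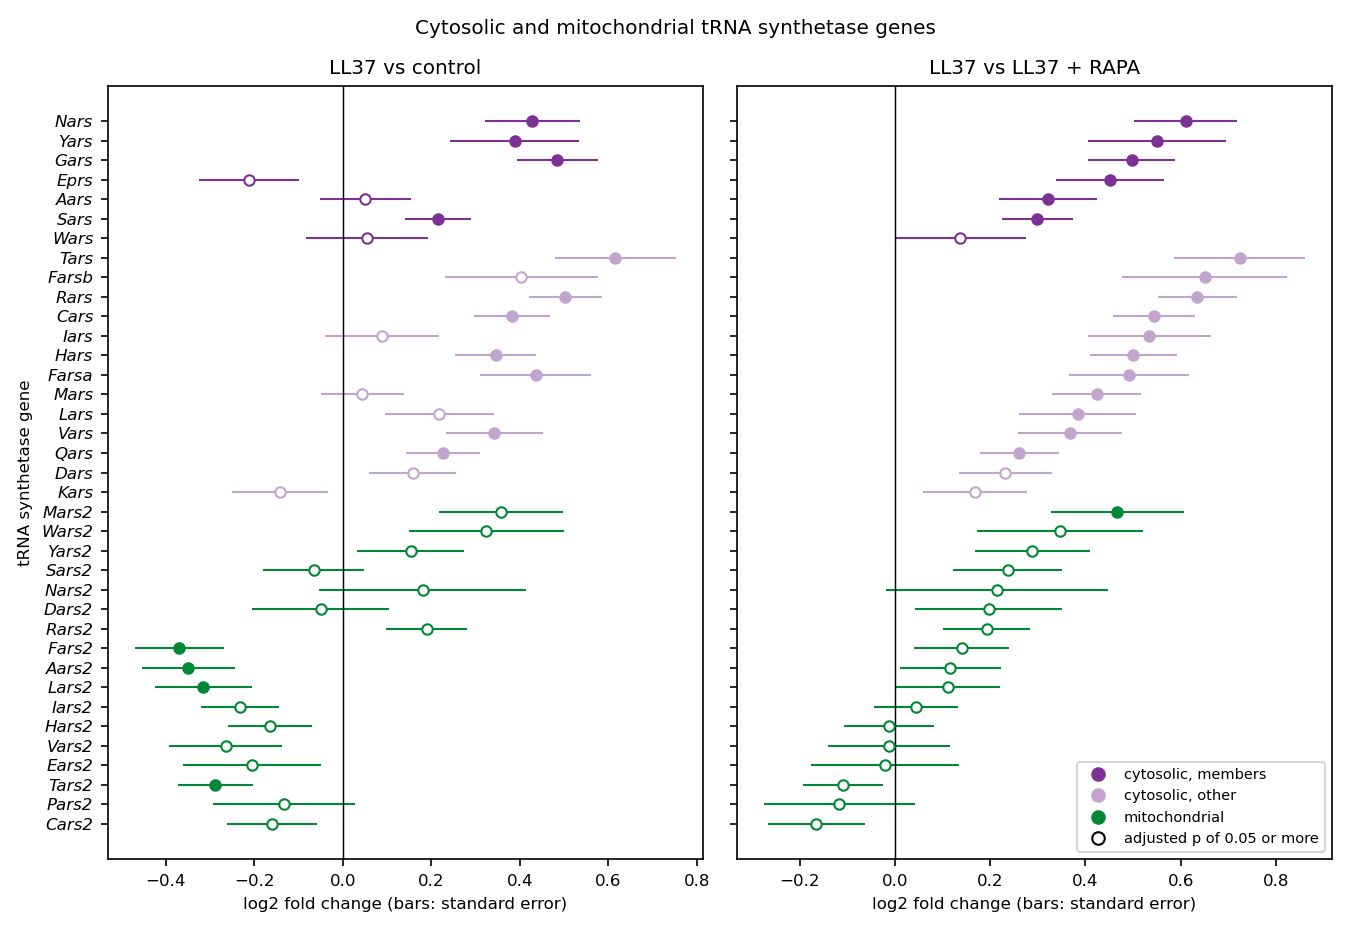
Points give the log2 fold change of each synthetase gene and bars its standard error, in LL37 vs control (left) and LL37 vs LL37 + RAPA (right), with filled points where the adjusted p was under 0.05. All 20 cytosolic genes lie above 0 in the right panel, where 17 are filled, and 1 of the 17 mitochondrial genes is filled.

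Upstream of ATF4, 9 genes for the eIF2 kinases, eIF2 subunits and the phosphatase subunits that reverse them were read as a list. With LL37, 3 rose and 0 fell, with a median of 0.29, where all tested genes gave 21% and 21.6%. Against LL37 + RAPA, 4 were higher and 0 lower, with a median of 0.32, where all genes gave 11.8% and 12.4%. Eif2ak2, the kinase PKR that senses double-stranded RNA and is itself induced by interferon, was at 14.2 to 24.2 CPM in control, 44 to 75.3 CPM in LL37 and 16.8 to 21.1 CPM in LL37 + RAPA. It rose by 1.64 ± 0.22 (adjusted p = 0.000161) and was 1.57 ± 0.22 above LL37 + RAPA (adjusted p = 0.0016). Eif2s1, the phosphorylated subunit of eIF2, rose by 0.68 ± 0.12 (adjusted p = 0.000906) and was 0.69 ± 0.12 above LL37 + RAPA (adjusted p = 0.00313). Ppp1r15b, a subunit of the phosphatase that resets eIF2, rose by 0.77 ± 0.12 (adjusted p = 0.000496). Eif2ak1, the haem-sensing kinase, was 0.33 ± 0.11 above LL37 + RAPA (adjusted p = 0.0481), and gave 0.29 ± 0.11 against control (adjusted p = 0.051).

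Of 16 further genes of the ATF4 pathway, 15 could be tested. With LL37, 5 rose and 3 fell, with a median of 0.08, and 4 were higher and 2 lower than in LL37 + RAPA, with a median of 0.10. All tested genes gave 21% up and 21.6% down with LL37, and 11.8% and 12.4% against LL37 + RAPA. Ero1l, an oxidase of the endoplasmic reticulum that also responds to hypoxia, rose by 2.44 ± 0.19 (adjusted p = 3.91e-06) and was 1.96 ± 0.18 above LL37 + RAPA (adjusted p = 0.000525). Adm2, a secreted peptide, was at 3.81, 3.98 and 4.15 CPM in LL37, at 0 to 0.263 CPM in control and at 0.095 to 0.737 CPM in LL37 + RAPA, so that its control level was at or near the limit of detection (adjusted p = 0.000366 and 0.00359). Klhl24, an adaptor of keratin turnover, fell by 1.27 on the log2 scale (adjusted p = 3.68e-05) and Herpud1, a factor of protein degradation at the endoplasmic reticulum, by 0.67 (adjusted p = 0.000225).

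To ask whether rapamycin acts on these genes in skin without LL37, control + RAPA was compared with control. None of the 38 genes was called, and 0% of all tested genes were called by edgeR. DESeq2 also called 0 of the 38, though over all 19542 genes it tested it called 30 higher and 63 lower. With the filter lowered to 1 count in total, edgeR called 1 higher and 9 lower over all genes. At an unadjusted p under 0.05 there were 5 of 38 (Atf5, Mthfd2, Aldh18a1, Pycr1 and Tdh), where all genes gave 8.65%. The log2 fold changes of these 5 were -0.24 ± 0.09, -0.68 ± 0.24, -0.58 ± 0.21, -0.77 ± 0.29 and -1.52 ± 0.59. For 33 of the 38 genes the log2 fold change with 2 SE added stayed under 1 in size. The exceptions were Mthfd2, Pycr1, Cth, Tdh and Slc7a11, for which the spread allowed a change of that size.

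Whether the effect of rapamycin differed between skin with and without LL37 was tested as the interaction. It was called for 4 of the 38 genes, where all genes gave 3.28%, and all 4 interaction terms were below 0. The 4 were Sesn2 (-0.93 ± 0.17, adjusted p = 0.0235), Shmt2 (-0.74 ± 0.18, adjusted p = 0.0445), Gars (-0.55 ± 0.13, adjusted p = 0.0434) and Sars (-0.44 ± 0.11, adjusted p = 0.0465). In all, 31 of the 38 estimates were below 0, with a median of -0.43 against 0.008 over all genes. At an unadjusted p under 0.05 there were 20 of 38, 14 below 0 and 6 above it, where all genes gave 22.5%. The 6 above 0 were Stc2, Pycr1, Cbs, Gpt2, Slc1a4 and Slc1a5.

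The interaction calls depended on single libraries. They became 16 without LL37 replicate 3. They became 0 without control replicate 1, LL37 replicate 1, LL37 + RAPA replicate 1 or control + RAPA replicate 3. Over all genes 387 were called above 0 and 203 below 0 in the main fit, and 1790 and 1355 without LL37 replicate 3. In the fits that gave 0, in that order, all genes gave 17 and 7, 78 and 30, 2 and 0, and 11 and 7. The calls for Shmt2, Gars and Sars were each lost in 11 of the 12 fits without 1 library and held only without LL37 replicate 3, and that for Sesn2 was lost in 4. With the replicate number as a block, 1 was called, where all genes gave 167 above 0 and 63 below 0. Asns (-1.01 ± 0.29, adjusted p = 0.0776), Aldh18a1 (-0.98 ± 0.29, adjusted p = 0.0816) and Tdh (-2.29 ± 0.80, adjusted p = 0.126) did not pass, so that a difference in the effect of rapamycin between the 2 kinds of skin was not shown for them. With scaling by library size alone, 1 was called, where all genes gave 518 above 0 and 138 below 0.

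**Figure D4:**
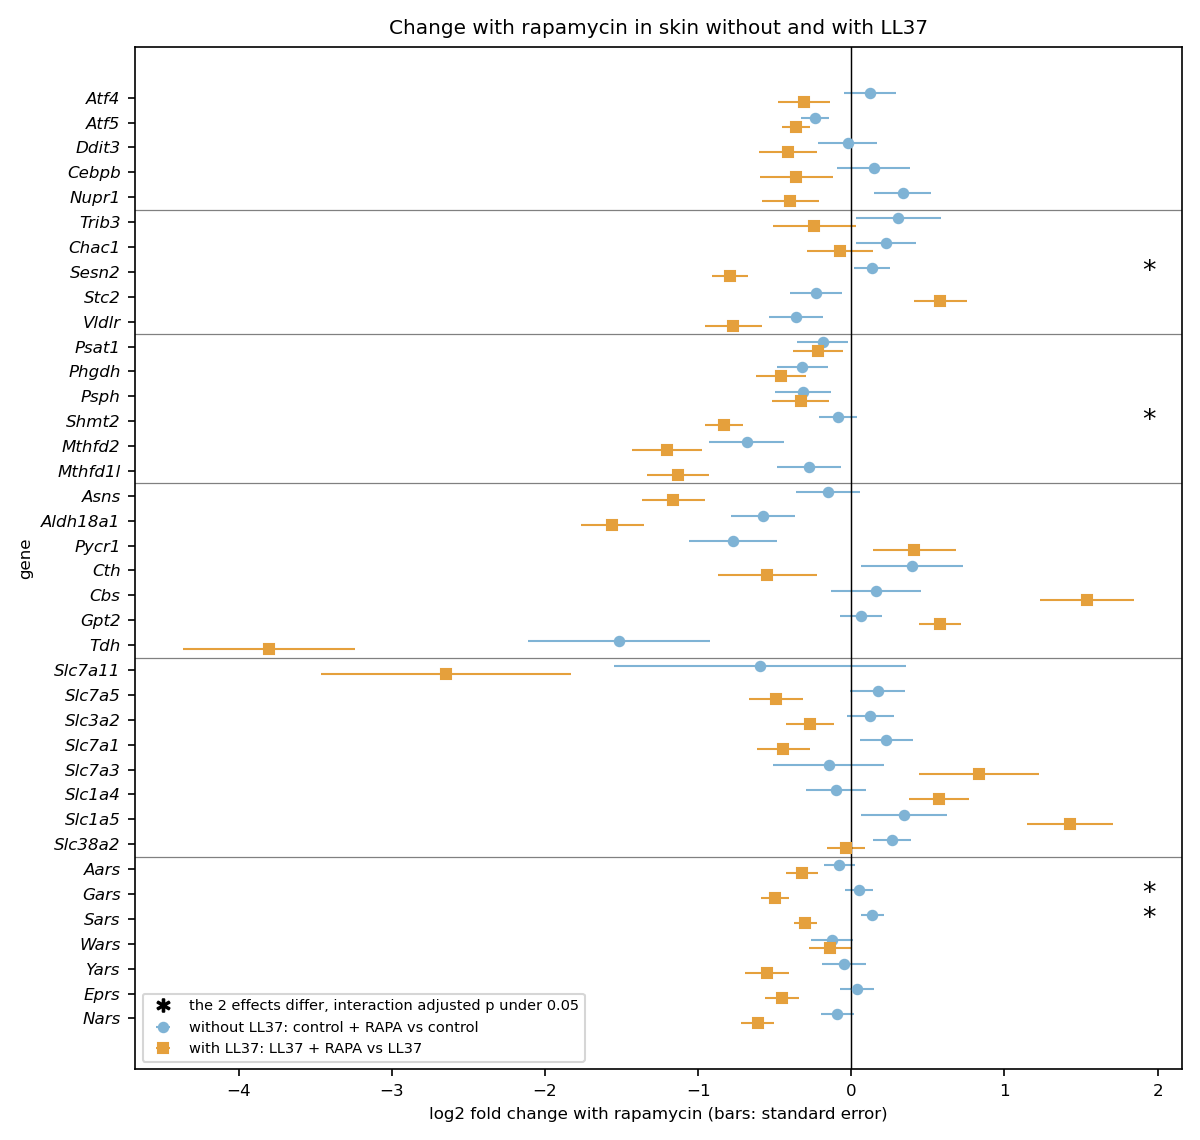
For each of the 38 genes, circles give the log2 fold change with rapamycin in skin without LL37 and squares the change in skin with LL37, with bars for the standard error and asterisks for the 4 genes whose interaction had an adjusted p under 0.05. The circles lie near 0 for most genes, while the squares lie below 0 for 31 genes and above 0 for Stc2, Cbs, Gpt2, Pycr1, Slc7a3, Slc1a4 and Slc1a5.

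Per kilobase of exon, which allows levels to be compared between genes, 3 of the transcription factors were the most abundant of the 38 in control skin. Cebpb stood at 169 ± 4.78 CPM per kilobase (SD, n = 3), Atf4 at 58.9 ± 13.3 and Atf5 at 57.7 ± 3.42, and the ranges of Atf4 and Atf5 overlapped. The heavy chain Slc3a2 followed at 42.4 ± 2.18. The enzymes with the largest rises started low: Asns was at 8.57 CPM per kilobase in control and 19.8 in LL37, Aldh18a1 at 4.73 and 17.4, Mthfd2 at 2.07 and 7.27, Mthfd1l at 1.83 and 6.4, and Tdh at 1.41 and 10.6. Slc7a11, at 0.18 in control and 2.88 in LL37, was at rank 33 of the 38 genes in LL37, with Slc1a4 just above it at 3.17 and Vldlr just below it at 2.14.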

How the data were processed

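RNA from whole back skin of 12 BALB/c mice (3 per group) was sequenced on an Illumina platform. The authors deposited 1 table of raw counts per gene and library, without normalization or pooling. The submitters' processing notes name the genome build mm10, HISAT2 2.0.5, StringTie 1.3.3b, featureCounts 1.5.0-p3 and DESeq2 1.16.1, while the study's methods name other tools for counting and testing, so which of them made the counts is unclear. Whether counting used strand is not given in the sources used here.

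Genes were named from GENCODE M21 (52489 of 52636 identifiers matched). All 12 libraries were fitted together in R 4.3.3 with edgeR 4.0.16 (TMM, filterByExpr by group, quasi-likelihood F-test), and p-values were adjusted by the Benjamini-Hochberg method over all 17993 tested genes. CPM values are TMM-scaled, and are given as mean ± SD over 3 libraries or for each library. Fold changes are on the log2 scale with standard errors (SE). Between replicates of a group, counts differed by more than sampling noise. The standard errors come from the fitted model, which includes the estimated spread between replicates. The floor of 3 counts covers counting error only. The members and the other gene lists were chosen with earlier results of these data known, and no set test was run. Named genes were Atf4 and all DEGs of the LL37 comparisons, given in every library, with the remaining members by fold change or range, and up to 4 genes with the smallest p among those called in each other list. Of these, 1 gene is not reported here. Promoter windows came from RefSeq (GRCm38.p6). Counts were simulated for 17993 genes, of which 200 were changed in LL37. In LL37 vs control edgeR recovered 129 with 3 false calls, and 74 of the 87 changed by the larger fold. For the interaction edgeR recovered 86 of the 200 with 4 false calls, and DESeq2 116 with 30 false calls. Far more genes, 7668, were called in the real LL37 vs control, so recovery there can differ. DESeq2 1.42.0 was used as an alternative, beside other scaling, filters, sample sets, thresholds and the replicate number as a block.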

Additional observations from a re-analysis of the deposited data

Results flagged for a closer look

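For 4 genes the effect of rapamycin passed the test of a difference between skin with and without LL37, by the interaction term of edgeR's quasi-likelihood test over all genes, but the calls were not stable. On the log2 scale the interaction was -0.9286 for Sesn2, -0.7439 for Shmt2, -0.5479 for Gars and -0.4368 for Sars. Without LL37 the change with rapamycin was 0.14 ± 0.12 (SE), -0.09 ± 0.13, 0.05 ± 0.09 and 0.14 ± 0.07 for the same genes in that order, and with LL37 each was higher without rapamycin, by 0.79 ± 0.12, 0.83 ± 0.13, 0.50 ± 0.09 and 0.30 ± 0.07. The calls for Shmt2, Gars and Sars were each lost in 11 of the 12 fits that left out 1 library and held only without LL37 replicate 3, and the call for Sesn2 was lost in 4. With the replicate number as a block, 1 call was left, that of Sesn2. DESeq2 called 10 of the 38 genes in this test. Over the 17065 genes it tested, it called 1045 above 0 and 644 below 0, where edgeR called 387 and 203 of 17993. Samples far from their group could not be looked for by a formal rule, since each group held 3 libraries.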

How the results depend on the processing

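Against control, the 19 genes that rose with LL37 became 14 to 19 when 1 library was left out, and the 7 that fell became 5 to 7. Against LL37 + RAPA, the 16 higher became 11 to 22 and the 4 lower became 2 to 5. In LL37 + RAPA against control, the 1 higher became 0 to 3 and the 5 lower became 4 to 5. The interaction gave 0 to 16 and control + RAPA against control 0 to 0. Over all genes the interaction gave 2 above 0 and 0 below without LL37 + RAPA replicate 1, and 1790 and 1355 without LL37 replicate 3. Calls higher than in LL37 + RAPA over all genes were 896 without LL37 replicate 1 and 3200 without LL37 replicate 3. With a log2 fold change beyond 1 required, the counts in the order just given were 6, 4, 6, 2, 0 and 2, and 0 for the interaction. At an unadjusted p under 0.05, LL37 + RAPA against control gave 5 higher, control + RAPA against control gave 5 and the interaction 20. With library size alone, LL37 + RAPA against control gave 3 higher and 3 lower, and the interaction gave 1. Over all genes that setting gave 1986 higher and 1254 lower, and for the interaction 518 above 0 and 138 below 0. Fitting only the compared groups gave 3 higher in LL37 + RAPA against control, and 11 higher in LL37 than in LL37 + RAPA, 2 of them tRNA synthetases. Over all genes those fits called 1189 of 17254 and 1197 of 17234 higher. DESeq2 gave 10 for the interaction, and 1045 above 0 and 644 below 0 over the 17065 genes it tested. The replicate number as a block gave 0 higher in LL37 + RAPA against control and 1 for the interaction, and Atf4 passed in LL37 against LL37 + RAPA (adjusted p = 0.0381). Libraries with the same number did not deviate together (correlations of -0.188 to 0.263), so the numbers were not taken as pairs. The other counts over all 38 genes stayed within 1.5 times of the main ones, and no call for a single gene reversed in any setting. The cause of these differences was not tested. With 3 libraries per group and depths of 15734559 counts or more, small changes such as those of the tRNA synthetases lay near the threshold.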
